A study of Mus musculus with 30 samples.

Results

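Immunoglobulin transcripts were examined in the livers of 30 male wild-type C57BL6/J mice. The genes were chosen by their symbol and by their level. A symbol had to begin with the letters of an immunoglobulin heavy, kappa or lambda chain segment or constant region, its probe set had to carry that symbol alone, and where a gene had several probe sets the one with the top average was taken. A gene was kept when its mean over the 30 livers lay above 3 on the log2 scale. Of 22180 genes with a probe set of their own, 21 had such a symbol and 10 of these were kept.

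The mice formed 5 groups of 6 and all were 35 weeks old. Lean mice received control diet for 27 weeks and obese mice a high-fat diet (HFD) for 27 weeks. Formerly obese mice received HFD for 20 weeks and then control diet for 7 weeks. Lean-HFD and formerly obese-HFD mice had the same histories as the lean and the formerly obese mice, followed by 48 h of HFD. RNA of whole liver was read on 1 Affymetrix Mouse Gene 2.0 ST array per mouse, and all levels below are RMA values on the log2 scale, in which a step of 1 is a factor of 2. The design asks what obesity, its loss and a short return to HFD leave in the liver.

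An antibody is built from heavy and light chains, each assembled in a B cell by joining variable (V) and joining (J) segments to a constant region. Ighm encodes the constant region of the heavy chain of IgM and Ighg3 that of IgG3, while the kappa and lambda loci encode the light chains. Plasma cells, which descend from B cells, transcribe their rearranged heavy and light chain genes very strongly. Each clone uses its own pair of segments, so a few plasma cells can raise some V segments and leave others low. Hepatocytes are not a source of these transcripts. In RNA of a whole liver, more cells of a type and more RNA per cell cannot be told apart.

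The 10 genes comprised 2 heavy chain constant regions (Ighm and Ighg3), 1 heavy chain V segment (Ighv1-53), 5 kappa V segments (Igkv5-43, Igkv15-103, Igkv4-72, Igkv4-91 and Igkv8-30), 1 kappa J segment (Igkj1) and Ighmbp2. The last is no immunoglobulin gene. It encodes a helicase, lies on chromosome 19 and matches the rule only through its symbol, so it served as a companion whose behaviour could be set beside the other 9. The heavy chain genes lie on chromosome 12 and the kappa genes on chromosome 6. No lambda gene was kept: Iglv1, on chromosome 16, had a mean of 2.99. Among the V segments with the symbol, 4 belonged to kappa family 4 (Igkv4-59, Igkv4-70, Igkv4-72 and Igkv4-91), of which 2 were kept.

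The levels that chose the genes are given as a description only. Igkv5-43 had the highest mean with 7.87, followed by Ighm with 7.73. A gap separated these from Ighmbp2 with 4.30, Ighv1-53 with 4.21, Igkv15-103 with 3.82, Igkv4-72 with 3.69, Igkv4-91 with 3.67, Igkv8-30 with 3.60, Igkj1 with 3.54 and Ighg3 with 3.25. The 3 members just inside the limit were thus Igkv8-30, Igkj1 and Ighg3. Just outside it were Iglv1, Igkv9-120 with 2.91 and Igkv4-59 with 2.67, and the remaining 8 genes reached down to 2.15. Since the median of all probe sets on an array lay between 3.29 and 3.38, several members stood close to the middle of everything measured. Only 4 members had a mean above 4.

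One symbol did not stand for one level. Ighm had 7 probe sets with means from 2.28 to 7.73, and the deviations of the other 6 from their group means correlated with those of the chosen one at r = 0.12 to 0.89 over 30 livers. The other probe sets of Igkv5-43 had means of 2.29 and 2.56 and followed the chosen one weakly, at r = 0.09 and 0.28. V segments of the same family can be similar in sequence. Probe sequences were not used here, so the assignment of a value to 1 segment is uncertain. A further 5 probe sets carried several immunoglobulin symbols and were left out by the rule. Their means ran from 5.76 to 9.24, and the highest of them (Igkv4-53, Igkj1 and Igkv6-23) followed Ighm at r = 0.95 across 30 livers.

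Ighm varied more between mice of the same diet than between diets. It ranged from 5.35 to 10.48 over the 30 livers, a 34.8-fold span on the linear scale. In lean mice its lowest, median and highest values were 5.87, 6.95 and 9.13, and in obese mice 7.41, 8.89 and 10.21. In formerly obese mice they were 6.82, 7.34 and 10.48. In lean-HFD mice they were 5.35, 7.39 and 8.28, and in formerly obese-HFD mice 6.75, 7.14 and 9.90. Every pair of groups overlapped, and the highest value of all came from a formerly obese mouse whose 5 group mates reached at most 7.66.

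Igkv5-43, the kappa V segment with the highest mean, ran over an 11.6-fold span. Its lowest, median and highest values were 6.96, 7.44 and 8.92 in lean, 7.18, 8.07 and 9.89 in obese and 6.95, 7.36 and 9.48 in formerly obese livers. They were 7.00, 7.58 and 8.19 in lean-HFD and 6.37, 7.74 and 9.91 in formerly obese-HFD livers. The group medians lay between 7.36 and 8.07, inside the range of each of the 5 groups.

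**Figure D1:**
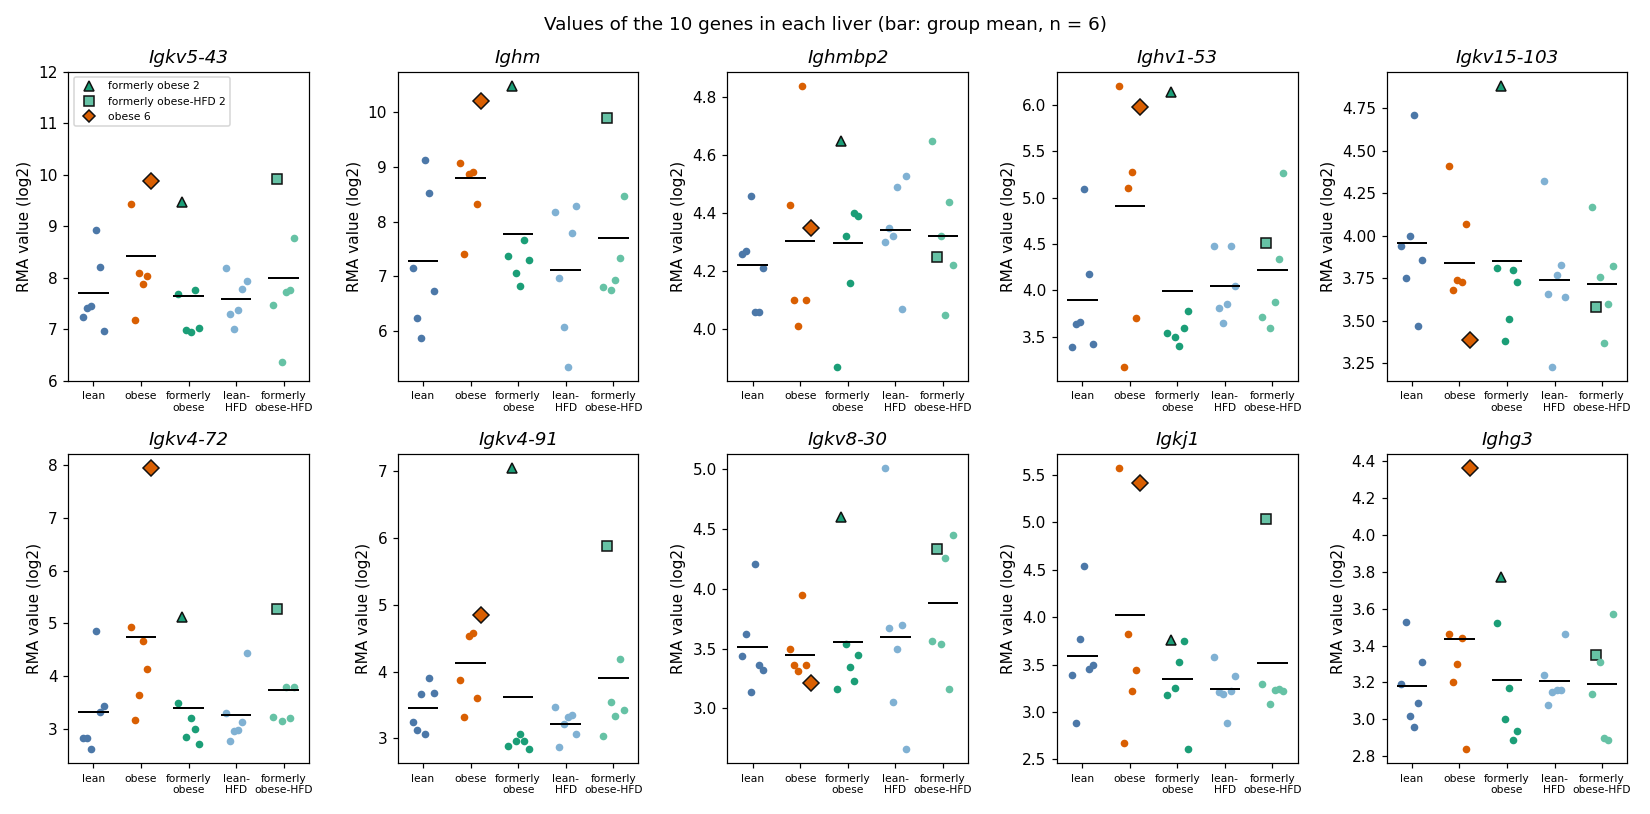
RMA values (log2) of the 10 genes in each of the 30 livers, 1 panel per gene with its own vertical scale; points are livers, bars are group means (n = 6), and 3 livers that were high in many members have outlined symbols. The liver of formerly obese mouse 2 (triangle) was at 10.48 for Ighm and at 7.05 for Igkv4-91, whereas Ighmbp2 stayed between 3.87 and 4.84 in all livers.

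A few livers were each among the highest for several members. Formerly obese mouse 2 was among the 3 highest livers for 9 of the 10 genes, the exception being Igkj1. These 9 include Ighmbp2, which was at 4.65 in this liver and at most at 4.84 in any liver. Obese mouse 6 was among the 3 highest livers for 7 genes, formerly obese-HFD mouse 2 for 5 and obese mouse 1 for 3. These mice differed in which segments were high. Igkv4-72 reached 7.94 in obese mouse 6 and at most 5.27 elsewhere. Igkv4-91 reached 7.05 in formerly obese mouse 2 and 5.89 in formerly obese-HFD mouse 2, and at most 4.85 in the other 28 livers. Igkj1 was highest in obese mouse 1 with 5.57, obese mouse 6 with 5.41 and formerly obese-HFD mouse 2 with 5.03, but stood at 3.76 in formerly obese mouse 2, where Ighm and Igkv4-91 were at their highest.

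The smaller members had their own order. Ighv1-53 was highest in obese mouse 1 with 6.20, formerly obese mouse 2 with 6.13 and obese mouse 6 with 5.97. Igkv15-103 was highest in formerly obese mouse 2 with 4.88 and lean mouse 4 with 4.71, and Igkv8-30 in lean-HFD mouse 1 with 5.01 and formerly obese mouse 2 with 4.60. Ighg3 was highest in obese mouse 6 with 4.36 and lay between 2.84 and 3.77 in the other 29 livers.

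**Figure D2:**
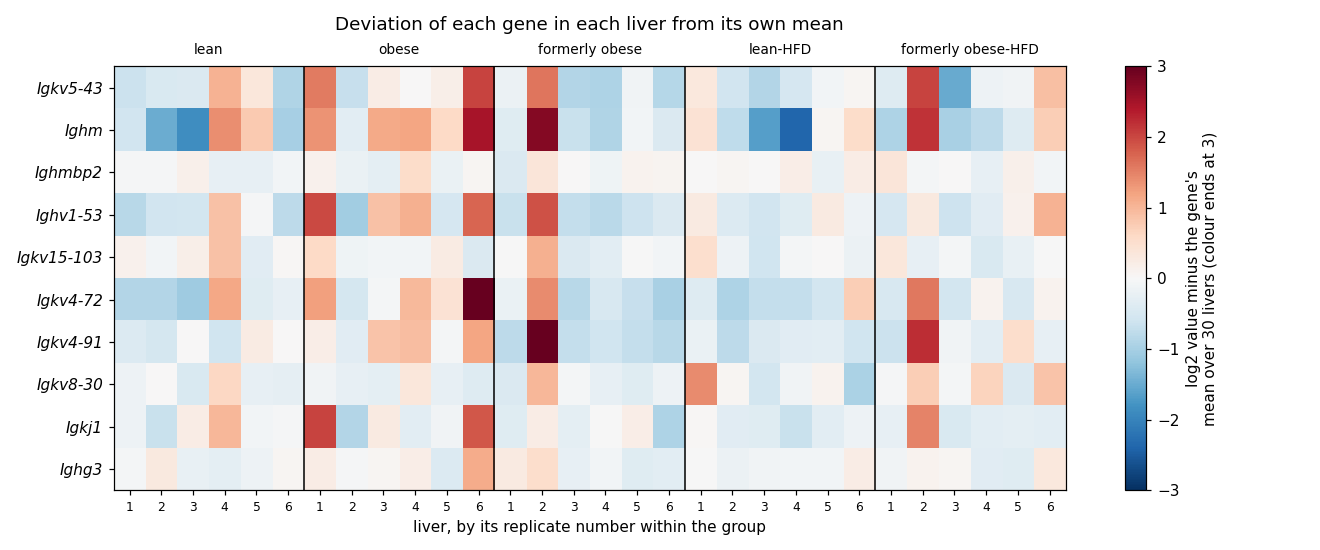
Difference of each gene's value from its own mean over 30 livers (log2, colour), with genes in rows and livers in columns grouped by diet and labelled by replicate number. Columns stand out more than groups: formerly obese 2, obese 1, obese 6 and formerly obese-HFD 2 are high in several immunoglobulin rows, and the Ighmbp2 row stays pale.

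The spread between mice of the same group set most of these genes apart from the array as a whole. The SD within groups was 1.21 for Ighm, which ranked 87 among all 41345 probe sets, 1.03 for Igkv4-72, 0.94 for Igkv4-91, 0.91 for Igkv5-43, 0.84 for Ighv1-53 and 0.71 for Igkj1. The median over all probe sets was 0.227, and 4 of the 10 members were in the top 1 percent. Igkv8-30 with 0.53, Igkv15-103 with 0.39 and Ighg3 with 0.32 were closer to the rest, and Ighmbp2 with 0.23 was at the median. The 9 genes with the symbol of a T cell receptor segment, a rearranged gene of another lymphocyte, had a median SD of 0.247 and a highest SD of 0.382. Tradd is among these 9 only through its symbol and is no receptor segment. No limit on the level was set for them, and 4 of the 9 had a mean above 3. The share of the total variance that lay between the 5 groups had a median of 13.8% over all probe sets. It was above this for Igkv4-72 with 25.5%, Ighm with 22.1%, Ighv1-53 with 18.2% and Igkj1 with 14.6%. It was below this for Igkv4-91 with 12.3%, Igkv5-43 with 11.9% and the remaining members, from 9.4% for Ighg3 to 3.8% for Ighmbp2.

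**Figure D3:**
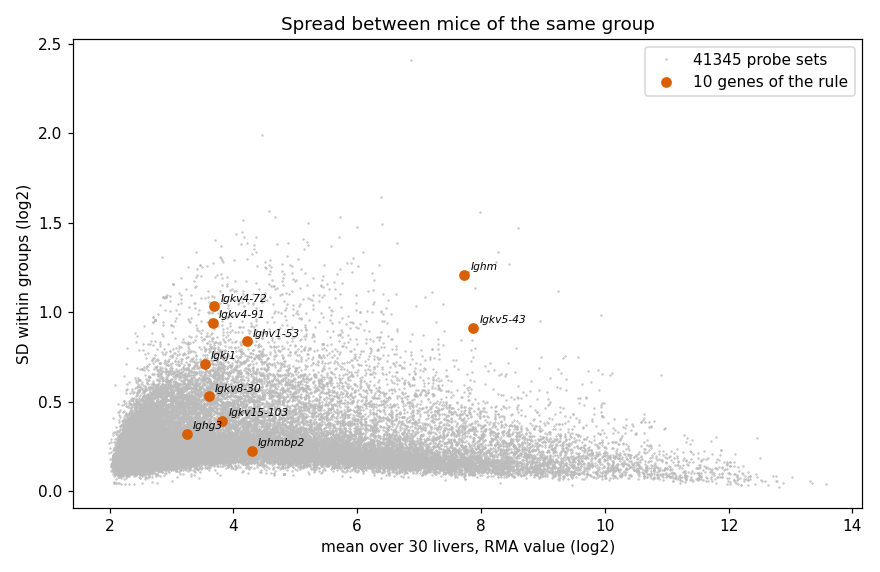
SD within groups (log2) against the mean over 30 livers (log2) for 41345 probe sets (grey) and the 10 genes (orange). Ighm and Igkv5-43 combine a high mean with SDs of 1.21 and 0.91, and Ighmbp2 lies among the bulk at 0.23.

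The members also varied together within groups. Over the 36 pairs that leave out Ighmbp2, deviations from the group means correlated with a median r of 0.51 and a range of 0.06 to 0.86, and 19 pairs exceeded 0.5. The 9 pairs with Ighmbp2 had a median r of 0.13 and none above 0.30. These correlations are a description over 30 livers, in which every pair shares the same arrays. Without formerly obese mouse 2, obese mice 1 and 6 and formerly obese-HFD mouse 2, a choice made after the values had been seen, the median r of the 36 pairs over 26 livers was 0.35, the range was -0.26 to 0.77 and 9 pairs exceeded 0.5.

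In 7 of the 10 members the highest group mean was that of obese mice. Of the 10 members 8 had a higher mean in obese than in lean livers, with a median log2 difference of 0.55 beside -0.01 over all probe sets. The difference was 1.52 for Ighm (SE 0.57), 1.43 for Igkv4-72 (SE 0.67), 1.01 for Ighv1-53 (SE 0.49), 0.72 for Igkv5-43 (SE 0.45), 0.68 for Igkv4-91 (SE 0.26) and 0.43 for Igkj1 (SE 0.47). The criteria, which ask for an unadjusted limma P under 0.01, a ratio of linear group averages above 1.2 and a linear average above 8 in at least 1 group, were met by 0 of 10 members, beside 2.01% of all probe sets. The smallest adjusted P was 0.522, for Ighm.

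At the chosen probe set of Ighm all 6 obese livers lay above the lean mean. The exact permutation test gave P = 0.0455 before any correction, where 0.00216 is the smallest value that 6 against 6 livers allow. The other probe sets of Ighm all differed by less than the chosen one, from -0.20 (SE 0.14) to 1.08 (SE 0.69). The one nearest to it in level, with a mean of 7.21, differed by 0.83 (SE 0.60). Igkv4-91 was above the lean mean in 5 of 6 obese livers, with lowest, median and highest values of 3.07, 3.46 and 3.90 in lean and 3.33, 4.20 and 4.85 in obese mice (exact permutation P = 0.0476). Igkv4-72 was at 2.62, 3.07 and 4.86 in lean and 3.17, 4.40 and 7.94 in obese mice (exact permutation P = 0.0628). For all 10 members the obese and lean values overlapped, and the share of all probe sets that overlap is not given here. These P values are 3 of 60 computed for the members, and none is adjusted.

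The 2 members without a higher mean in obese livers were Igkv15-103, with a difference of -0.12, and Igkv8-30, with -0.07. Without lean mouse 4 both signs turned, to 0.033 and 0.071. Ighg3 differed by 0.25 and Ighmbp2 by 0.09, or by -0.021 without obese mouse 4. Among the genes below the limit, Igkv4-70 differed most, by 0.66 (SE 0.25), followed by Igkv4-59 with 0.59 (SE 0.22). Their adjusted P values were 0.517 and 0.509. The other genes below the limit ran from -0.22 for Igkv6-14 to 0.18 for Igkv6-23. Over all 21 genes with the symbol the median difference was 0.10. The result for Ighm depended on single mice. Without obese mouse 2, in which Ighm was lowest among the obese, Ighm, Ighv1-53 and Igkv4-91 met the criteria. Without lean mouse 4 or lean mouse 5 Ighm alone did. The share of all probe sets that met the criteria in these refits is not given here, so these calls lack that background.

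**Figure D4:**
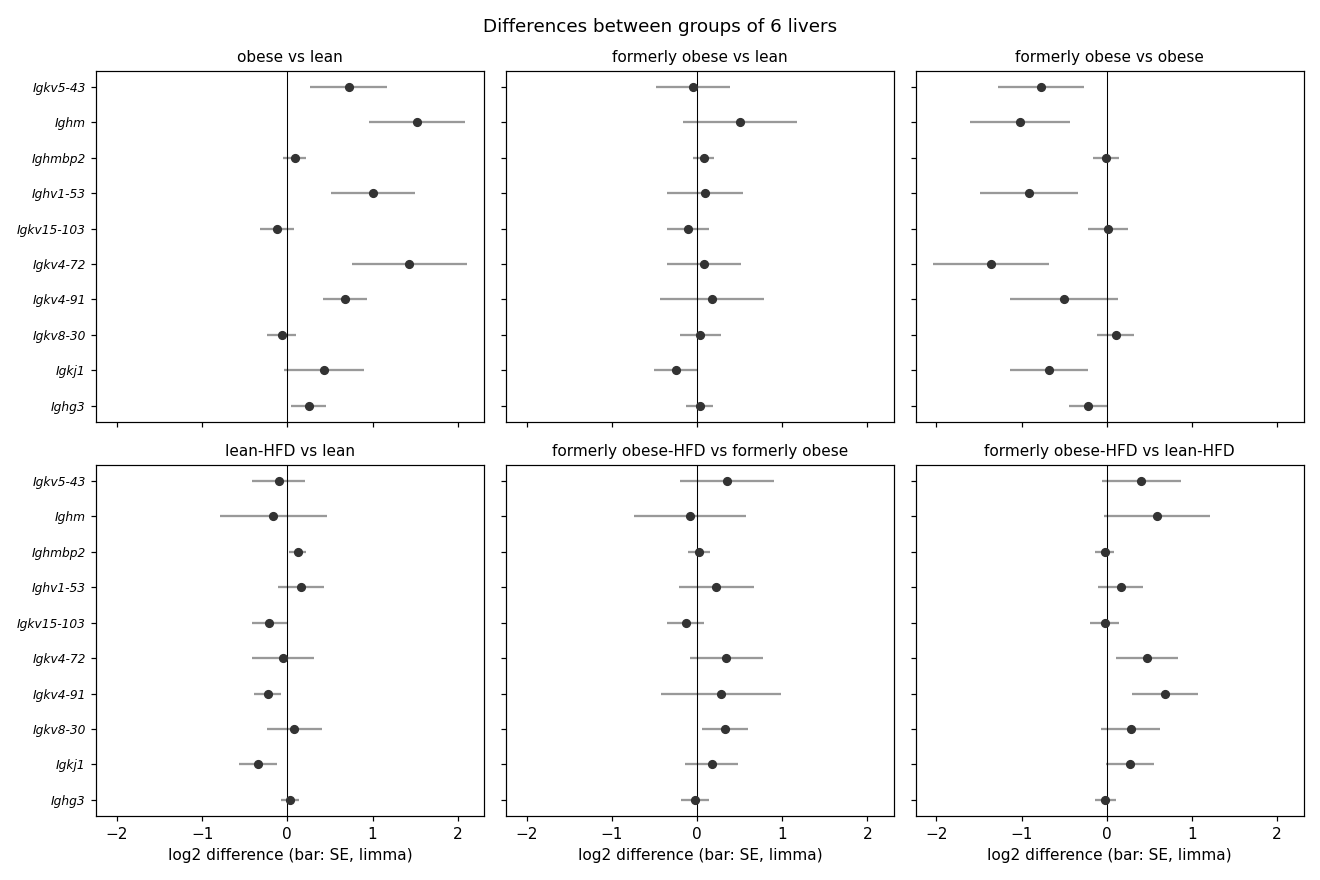
Differences between group means (log2, points) with their limma SE (bars) for the 10 genes in the 6 comparisons of 6 against 6 livers; 0 means no difference. Most points in the comparison of obese with lean lie to the right, up to 1.52 for Ighm, those of formerly obese with obese lie to the left, down to -1.35 for Igkv4-72, and 0 of 10 genes met the criteria in any panel.

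After weight loss the differences from lean mice were small beside their errors. In formerly obese against lean livers 7 of 10 members had a higher mean, but the median difference was 0.06, and by group medians only 3 of 10 were higher. Ighm differed by 0.50 (SE 0.67) and Igkv5-43 by -0.05 (SE 0.43). None of the 10 met the criteria, beside 0.905% of all probe sets, and the smallest adjusted P was 0.922. Mouse 2 of the formerly obese group decided the sign of several means. Without it the difference of Ighm was -0.036.

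Igkv4-91 showed this most clearly. In formerly obese livers it was at 2.84, 2.96 and 7.05 for the lowest, median and highest value, against 3.07, 3.46 and 3.90 in lean livers, so that the mean was 0.18 higher (SE 0.61) while the median was lower. Without formerly obese mouse 2 the difference became -0.51 and met the criteria. The average on the linear scale was 28.5 in formerly obese livers with an SD of 50.9, which a single value of 132 carried.

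Formerly obese livers were also set against obese livers. Only 2 of 10 members had a higher mean after weight loss, and the median difference was -0.59. The differences were -1.35 for Igkv4-72 (SE 0.68), -1.02 for Ighm (SE 0.58), -0.91 for Ighv1-53 (SE 0.57), -0.77 for Igkv5-43 (SE 0.50) and -0.50 for Igkv4-91 (SE 0.64). No member met the criteria, beside 2.17% of all probe sets, and the smallest adjusted P was 0.62. The comparisons with obese and with lean livers share their samples, so they are not independent of each other. Without formerly obese mouse 2, Ighm and Igkv4-91 met the criteria, lower by 1.56 and 1.19.

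No immunoglobulin gene met the criteria after 48 h of HFD. In lean-HFD against lean livers the differences ran from -0.35 for Igkj1 (SE 0.22) to 0.16 for Ighv1-53, and the median was -0.08. Ighm differed by -0.17 (SE 0.63). The count was 0 of 10 members, beside 1.29% of all probe sets, and the smallest adjusted P was 0.850. With an SE of this size, a change of 1 log2 step in Ighm would not have met the criteria.

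In formerly obese-HFD against formerly obese livers the median difference was 0.20, with 0.35 for Igkv5-43 (SE 0.55), 0.28 for Igkv4-91 (SE 0.71) and -0.08 for Ighm (SE 0.66). No member met the criteria, beside 1.18% of all probe sets. Each of these groups held 1 mouse, replicate 2 in both, with very high values. The replicate numbers do not pair the groups, since each liver is from another mouse. With both of these mice left out, a choice made after the values had been seen, Igkv4-91 was the only member to meet the criteria, with a difference of 0.56.

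Formerly obese-HFD livers were set against lean-HFD livers to compare the refed state with and without a history of obesity. Of the 10 members 7 had a higher mean, with a median difference of 0.28. The difference was 0.69 for Igkv4-91 (SE 0.38), 0.59 for Ighm (SE 0.62) and 0.41 for Igkv5-43 (SE 0.46). None met the criteria, beside 0.914% of all probe sets, and the smallest adjusted P was 0.920. The difference between the refeeding effects in the 2 histories was tested as an interaction over 24 livers. Its value was 0.51 for Igkv4-91 (SE 0.77) and 0.09 for Ighm (SE 0.97). No member met the criteria for it, beside 0.716% of all probe sets. With mouse 2 of both formerly obese groups left out, Igkv4-91 met them, with a value of 0.80. Igkv9-120, a kappa V segment just below the limit, was the only one of the 21 genes that did (1.498, SE 0.52, adjusted P = 0.934). It stood at 5.04 and 4.96 in formerly obese-HFD mice 2 and 6 and at most at 3.92 in all other livers.

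A test for any difference among the 5 groups found none of the 10 members at a false discovery rate of 10%, beside 0.714% of all probe sets. The smallest adjusted P was 0.590, for Igkv4-72. At an unadjusted limma P under 0.05, 2 of the 10 members passed in the comparison of obese with lean livers, beside 7.79% of all probe sets. In each of the other 5 comparisons and the interaction 0 passed, beside 5.2% to 8.52% of all probe sets.

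Genes of the cells that make antibodies were set beside these values. Jchain encodes the chain that joins IgM and IgA into polymers and is a marker of plasma cells. It was at 6.26 in obese mouse 6, 5.77 in formerly obese mouse 2, 5.51 in formerly obese-HFD mouse 2 and 4.36 in obese mouse 1, and at most at 3.85 in the other 26 livers. These are the 4 livers that were most often among the 3 highest for a member. By Ighm alone, lean mouse 4 at 9.13 came before obese mouse 1 at 9.08, and Jchain was at 3.68 in lean mouse 4. Over the 30 livers the deviations of Jchain from its group means correlated with those of Ighm at Pearson r = 0.81 and Spearman rho = 0.69 (permutation within groups, both P = 1e-05, the smallest value 100000 permutations can give, adjusted P = 5e-05 over 5 relations). The relation had the same direction in 5 of 5 groups, from r = 0.75 to 0.97, and without the 2 livers farthest from the median of Ighm r was 0.78.

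The same relation was computed for 4 other markers. Mzb1, a chaperone of plasma and B cells, gave r = 0.27 and rho = 0.20 with Ighm (adjusted permutation P = 0.237 and 0.371), and without the 2 farthest livers r was 0.06. Cd79a, a signalling chain of the B cell receptor, gave r = 0.38 and rho = 0.30 (adjusted permutation P = 0.162 and 0.327). Ms4a1, which encodes CD20, gave r = 0.30 and rho = 0.26 (adjusted permutation P = 0.237 and 0.328). Cd3e, a T cell receptor chain, gave r = 0.07 and rho = 0.04 (adjusted permutation P = 0.703 and 0.833). These genes had means between 3.07 and 3.90, near the middle of the array, and Jchain had a mean of 3.56.

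**Figure D5:**
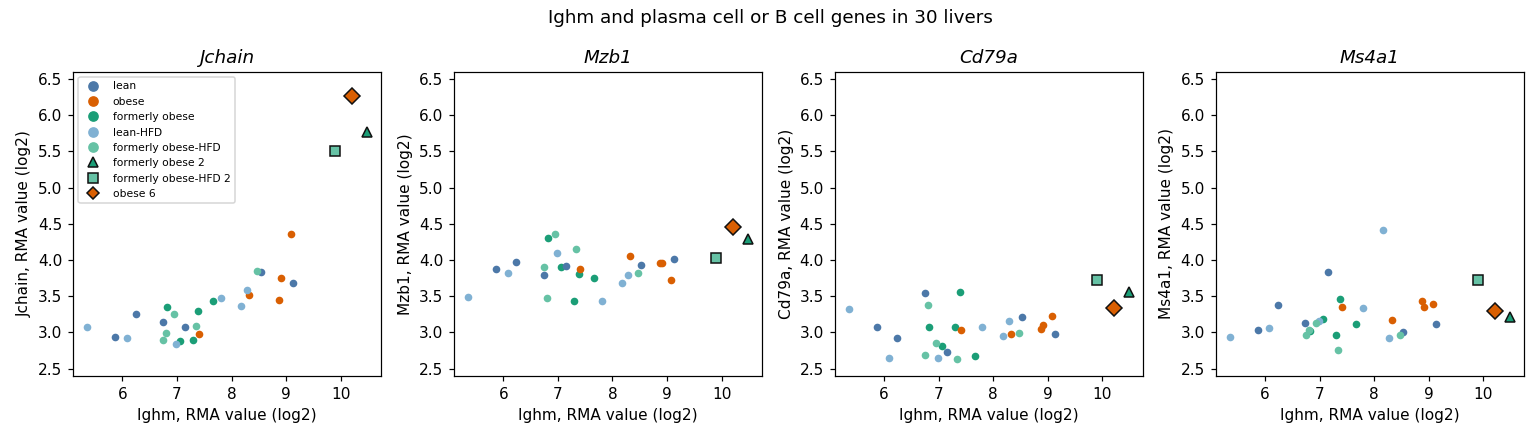
Values (log2) of Jchain, Mzb1, Cd79a and Ms4a1 against Ighm in 30 livers, coloured by group, on a common vertical scale; outlined symbols mark the 3 livers named in the legend. Jchain rises with Ighm up to 6.26 in obese mouse 6, while Cd79a stays between 2.64 and 3.73.

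Within the members, the deviations of Igkv5-43 correlated with those of Ighm (0.86), Ighv1-53 (0.82), Igkv4-72 (0.80) and Igkj1 (0.77). Outside the 10 members, the 10 genes with deviations most like those of Igkv5-43 were led by Jchain at r = 0.89. Igkv4-70 (0.82) and Igkv4-59 (0.73), both kappa V segments below the limit, came next among these. They were followed by Srsf3, a splicing factor (0.67), Slpi, a secreted protease inhibitor (0.67), H2-DMb2, a chain of the class II peptide loading complex (0.66), Cd52, a surface glycoprotein of leukocytes (0.65), 1700034J05Rik (0.63), Pcdhb22, a protocadherin (0.63), and Ccl5, a chemokine (0.62). Among the 30 probe sets closest to Igkv5-43, 12 had immunoglobulin symbols, 1 was Jchain and 17 had no single gene symbol. These likenesses are over 30 livers and were not tested.

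Lists of marker genes were compared in the same way. Of 19 B cell genes, 0 met the criteria in obese against lean livers, beside 2.01% of all probe sets. The list mean ran from 3.54 to 3.70 in lean and from 3.44 to 3.85 in obese livers. Over all 30 livers it ranked 1 in formerly obese-HFD mouse 2, 3 in obese mouse 6 and 12 in formerly obese mouse 2. Its smallest P values belonged to Pou2af1, a coactivator of immunoglobulin transcription (0.29, adjusted P = 0.571), and Ly6d (1.28). The median difference of the list was -0.01, the same as over all probe sets. In formerly obese against lean livers Fcmr, the Fc receptor for IgM, differed by -0.28 and did not meet the criteria.

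Of 18 plasma cell genes, 1 met the criteria in obese against lean livers, and it was lower, beside 2.01% of all probe sets. This was Xbp1, a transcription factor of the secretory programme that hepatocytes also express at a high level (-0.29, SE 0.08). Slamf7 differed by 0.53 (SE 0.20) and Jchain by 0.73 (SE 0.44), and neither met the criteria. In lean-HFD against lean livers 3 of 18 were higher, beside 1.29% of all probe sets called. These were Derl3 (1.05), Fkbp11 (0.54) and Creld2 (0.42), all proteins of the endoplasmic reticulum. Their means over the 30 livers were 4.24, 6.73 and 6.06, beside 3.56 for Jchain. Which cells gave these transcripts was not tested. None of the immunoglobulin members met the criteria in that comparison. In formerly obese against lean livers Fkbp11 alone was higher (0.34), beside 0.905% called. The list mean in all 30 livers lay between 4.91 and 5.34 and was highest in formerly obese-HFD mouse 2. The list mean ranked 4 in formerly obese mouse 2 and 5 in obese mouse 6. It includes Jchain, which was itself high in these livers, so the ranks are not separate from the Jchain values. The list without Jchain was not tested.

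Markers of other cells were set beside the same groups. Of 15 T cell genes, 2 were higher in obese than in lean livers, Themis by 2.64 and Cd3g by 0.33, beside 2.01% of all probe sets called. The list mean was 3.33 to 3.64 in obese against 3.25 to 3.37 in lean livers. It includes Themis, whose difference was large, and the list without Themis was not tested. The median difference of the 15 genes was 0.05, beside -0.01 over all probe sets. Of 12 macrophage genes, 6 were higher in formerly obese than in lean livers, beside 0.905% called, among them Timd4 (0.78), C1qb (0.63), Msr1 (0.57) and Csf1r (0.45), and 0 in obese against lean livers. Fcgr1, an IgG receptor of macrophages, was higher by 0.58 in formerly obese livers, and Pigr, which carries polymeric antibody across epithelia and into bile, differed by 0.22 without meeting the criteria. Of 12 survival factors and receptors for B cells and plasma cells, 0 met the criteria in the comparisons of obese or formerly obese with lean livers. The part of these cells in the immunoglobulin values was not tested. The mean of 8 hepatocyte genes lay between 11.08 and 11.42 over the 30 livers. Counted from the highest, it ranked 23 in formerly obese-HFD mouse 2, 26 in formerly obese mouse 2 and 29 in obese mouse 6, and its part in the immunoglobulin values was not tested. All arrays correlated with each other at r = 0.962 to 0.983.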

How the data were processed

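Liver RNA of 30 mice was measured on 1 array each. Per the labels the authors made the deposited values with RMA in Affymetrix Expression Console 1.4.1.46, which gives background-corrected, quantile-normalised log2 values for 41345 probe sets. Symbols came from the platform annotation: 23521 probe sets had 1 symbol, 1820 several and 16004 none. All 21 symbols matched the RefSeq gene table (GRCm38.p6), which supplied chromosomes and gene types. The rule's limit was read as a mean above 3 on the log2 scale, a linear value of 8.

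limma 3.58.1 in R 4.3.3 was fitted over all probe sets on the livers of each comparison, with Benjamini-Hochberg adjustment over all of them. The criteria follow the study's methods. Exact permutation tests (two-sided) and permutations within groups (100000) used Python 3.11.15. The number of arrays limits the precision. The mice are separate animals. The script was tested on simulated data. Named were all constant regions, the members highest in mean or SD, those next to the limit, the 10 genes most like Igkv5-43, and per marker list up to 4 genes with the smallest P. The genes and lists were chosen with earlier results of these data known. Alternatives were other fits, centring, weights, thresholds, probe set means, a replicate block and each liver left out.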

Additional observations from a re-analysis of the deposited data

Results flagged for a closer look

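In 12 of 50 combinations of a member and a group, the highest liver stood far from the other 5, with a gap to the next that took up most of the group's range and passed Dixon's test. Chance flags about 1 in 20 groups if values are normally distributed, which was not tested here. The members share livers, so the flags are not independent. In the formerly obese group the liver of mouse 2 was set apart for 7 members: Ighm at 10.48 (next 7.66), Igkv5-43 at 9.48 (next 7.77), Igkv4-91 at 7.05 (next 3.07), Ighv1-53 at 6.13 (next 3.78), Igkv4-72 at 5.12 (next 3.49), Igkv15-103 at 4.88 (next 3.81) and Igkv8-30 at 4.60 (next 3.54). In the formerly obese-HFD group it was mouse 2 for Igkv4-72 at 5.27 (next 3.80) and Igkj1 at 5.03 (next 3.29).

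Igkv4-72 was flagged in all 5 groups. Beside the values above it was at 4.86 in lean mouse 4 (next 3.44), 7.94 in obese mouse 6 (next 4.93) and 4.44 in lean-HFD mouse 6 (next 3.30).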

How the results depend on the processing

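The count of members meeting the criteria was 0 in each comparison and stayed 0 under every alternative fit, centring, weighting and threshold and with the mean of all probe sets. Leaving out 1 liver gave 0 to 3 members for obese vs lean, 0 to 1 for formerly obese vs lean and 0 to 2 for formerly obese vs obese, and 0 elsewhere. With replicate 2 of both formerly obese groups left out together, chosen after seeing the data, Igkv4-91 was the 1 member called in formerly obese-HFD vs formerly obese, in the interaction and among the 5 groups. For all counts with livers left out, the share of all probe sets called in the same refit is not given here. Same-numbered livers of different groups deviated together only weakly, with a mean r of 0.018 over 60 pairs, beside -0.0035 over 300 other pairs. The fit with the replicate block gave 0 members in every comparison.

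Of the differences recomputed under each alternative, these changed sign. With 1 liver left out, obese vs lean ran from -0.23 to 0.033 for Igkv15-103, -0.17 to 0.071 for Igkv8-30 and -0.021 to 0.14 for Ighmbp2. Formerly obese vs lean ran from -0.036 to 0.87 for Ighm, -0.41 to 0.20 for Igkv5-43 and -0.51 to 0.33 for Igkv4-91. Lean-HFD vs lean ran from -0.45 to 0.20 for Ighm. Formerly obese-HFD vs formerly obese ran from -0.52 to 0.46 for Ighm, -0.031 to 0.72 for Igkv5-43 and -0.12 to 0.96 for Igkv4-91, and the interaction from -0.35 to 0.63 for Ighm. Ighm in formerly obese-HFD vs formerly obese was 0.036 with array weights, 0.18 with the mean of all probe sets and 0.021 without both mice 2; Igkv5-43 in formerly obese vs lean was 0.12 with the mean of all probe sets. The cause was not tested. A mean above 4 leaves 4 members and no limit gives 21.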
